A study of Mus musculus with 22 samples.

Results

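Sorted mouse bone marrow cells labelled +/+ came in 2 sets, named OGCsort and CPGSE in the labels, and the comparison here is of the 3 OGCsort +/+ RNA samples (#1, #5 and #6) with the 2 CPGSE +/+ RNA samples (#4 and #6), 5 of the 11 RNA samples of the series. The samples were chosen by label alone, all probe sets were used, and each RNA sample was hybridised to 1 MOE430A array (chip A) and 1 MOE430B array (chip B), Affymetrix chips that cover different probe sets of the mouse genome, so 10 of 22 arrays are concerned. The other 6 RNA samples are 3 OGCsort +/- and 3 OGCsort -/- sorts, which enter the model as further groups. OGCsort +/+ cells were described as a sorted sub-population of primary bone marrow of 90% estimated purity, with RNA made by RNeasy, and their labels do not say which markers the signs stand for. CPGSE +/+ cells were described as haematopoietic stem cells of bone marrow, stained with CD45-APC and Sca1-PE and sorted on a MoFlo, with an estimated purity of 95% to 98% and RNA made by a Qiagen method. The labels give no strain, sex, age or number of animals for either set and no treatment, and the numbers after # do not pair samples between the sets. No label says whether each sample of a set had its own animal. The model's p-values and 95% intervals therefore cover only the spread within groups of these 11 RNA samples, part of which may be technical. That spread takes in the OGCsort +/- and OGCsort -/- samples as well as the +/+ samples. Sex-linked transcripts, given below, differed between samples of each set, so neither set came from a single animal.

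CD45, encoded by Ptprc, is a membrane phosphatase carried by nearly all nucleated cells of the blood lineages other than late erythroid ones. Sca1 marks haematopoietic stem and progenitor cells in many mouse strains and is also found on lymphocytes, plasma cells and endothelial cells, so a CD45 and Sca1 double-positive gate in whole marrow takes in several cell types. In bulk RNA, fewer cells of a type and less RNA per cell cannot be told apart.

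Ptprc was abundant in both sets. Its probe set on chip A had rescaled signals of 10566, 8999 and 12309 in OGCsort +/+ samples and 14638 and 12045 in CPGSE +/+ samples, against 153 to 1167 in OGCsort -/- samples. The 2 sets of +/+ cells overlapped, with a log2 difference (OGCsort minus CPGSE) of -0.33 (95% interval -1.44 to 0.78) and p = 0.3 in an exact two-sided permutation test, which with 3 against 2 samples cannot go below 0.1. On chip B the Ptprc probe set gave a log2 difference of -0.50 and an exact p of 0.4. Of 11 stem and progenitor markers chosen to check the CPGSE label, 10 were measured and 9 of these had a signal over 100 in all 5 samples. This bar is low, since 63.9% to 70.7% of all chip A probe sets were over 100 on these arrays. Kit, Flt3, Gata2, Slamf1 and Hlf were also over 100 in every OGCsort -/- sample. Cd34, Meis1 and Procr were under 100 in every OGCsort -/- sample, and Hoxa9 and Mecom were mixed there. The count by itself therefore does not test the stem cell label. Sca1 itself (Ly6a) was not checked, since no probe set used here is named for that gene alone. Meis1, a homeobox factor of stem cells, read 351, 454 and 322 in OGCsort +/+ samples and 294 and 300 in CPGSE +/+ samples. Hoxa9, another homeobox factor of early haematopoiesis, read 1870, 2115 and 1773 in OGCsort +/+ samples, against 1320 and 1126 in CPGSE +/+ samples, a log2 difference of 0.64 (interval -0.23 to 1.51) that did not pass the test. Hlf, a transcription factor of long-term stem cells, read 1046, 834 and 938 in OGCsort +/+ samples, against 679 and 673 in CPGSE +/+ samples. Kit, the receptor of stem cell factor, overlapped at 621, 540 and 616 in OGCsort +/+ samples and 580 and 636 in CPGSE +/+ samples. Both sets also held transcripts of B cells and antigen-presenting cells. Cd79b, a chain of the B cell receptor, read 6508, 5729 and 7400 in OGCsort +/+ samples and 5403 and 4295 in CPGSE +/+ samples. Cd74, the invariant chain of MHC class II, read 10508, 7989 and 11617 in OGCsort +/+ samples and 11312 and 9262 in CPGSE +/+ samples.

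Several array measures differed between the sets or within them. All CPGSE arrays were run on chip lots and in a run of their own, so sort set, chip lot and array run cannot be told apart. Of the hybridisation control transcripts, bioB on chip A read 3677, 4251 and 4035 on the OGCsort +/+ arrays and 1558 and 2187 on the CPGSE +/+ arrays, and bioC, bioD and cre also lay higher on all 3 OGCsort +/+ arrays than on both CPGSE +/+ arrays, on both chips. The ratio of 3′ to 5′ Gapdh control signal on chip A, which is high where RNA is degraded or copied incompletely, was 24.8, 16.8 and 9.14 in OGCsort +/+ samples and 14.4 and 15.0 in CPGSE +/+ samples, so OGCsort +/+ #1 was the highest and OGCsort +/+ #6 the lowest. The actin ratio ranked OGCsort +/+ #1 highest too, at 12.9, with 9.23 in #5 and 4.06 in #6, against 4.56 and 4.77 in the CPGSE +/+ samples. Fits with the Gapdh ratio as a covariate, or with the array run as a random block, each called 0 probe sets, as did the fit without them, so they do not show what part these measures have in the results below.

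No probe set passed the test between the sets. In limma with Benjamini-Hochberg adjustment over 40528 probe sets, 0 (0%) had an adjusted p under 0.05 and the lowest adjusted p was 0.294; 2429 probe sets (5.99%) had an unadjusted p under 0.05, 1407 of them higher and 1022 lower in OGCsort. Chip A gave 1201 such probe sets of 19273 and chip B 1228 of 21255. Giving each array a weight for its noise called 115 probe sets, 78 higher and 37 lower in OGCsort, and leaving out OGCsort +/+ #1 called 3, while leaving out CPGSE +/+ #6 called 1. In the same 11-sample model OGCsort +/+ against OGCsort -/- called 18.4% of probe sets and CPGSE +/+ against OGCsort -/- called 17.1%. OGCsort +/+ against OGCsort +/- called 0.185% and CPGSE +/+ against OGCsort +/- called 0.316%.

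A missed threshold does not show that the sets were alike. The median size of the log2 difference was 0.37, and the 95% interval reached a median of 1.18 log2 units to either side, so only 15.7% of probe sets had an interval that lay wholly within a doubling or halving. Correlation between arrays, over the log2 values of the probe sets kept on chip A, was 0.889 to 0.933 between OGCsort +/+ and CPGSE +/+ arrays, against 0.884 to 0.930 among the 3 OGCsort +/+ arrays and 0.947 between the 2 CPGSE +/+ arrays. On chip B it was 0.784 to 0.814 between the sets, 0.811 to 0.836 among OGCsort +/+ arrays and 0.804 between the CPGSE +/+ arrays. The between-set range thus overlapped the within-set values on both chips, although on chip B its lower end lay below every pair within a set.

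The differences of single genes had little in common between the chips. For 3318 genes with a kept probe set on each chip, the OGCsort minus CPGSE difference had the same sign on both chips in 51.1% of genes, with a Pearson correlation across genes of 0.02. The same genes, compared between OGCsort +/+ and OGCsort -/- samples, had the same sign in 62.0% and a correlation of 0.42. Over the 156 genes with a mean log2 signal of 10 or more on both chips, the correlation was 0.13 for OGCsort +/+ minus CPGSE +/+ and 0.79 for OGCsort +/+ minus OGCsort -/-. Genes are not independent replicates, probe sets of a gene can lie on different transcripts, and these correlations are descriptions. The values below come from 1 probe set a gene, and for Kit, Cd24a, Ier5, Egr3, Hsp90aa1, Dnajb1, Ms4a6c, Vcam1, Tap1, Eif2s3y, Xbp1, Psma1 and Nusap1 at least 1 further probe set had the opposite sign.

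Immediate early genes, which are transcribed within minutes of a stimulus without new protein synthesis, mostly had higher values in OGCsort. Many of them code for transcription factors of the Fos, Jun, Egr and Nr4a families or for phosphatases that end the kinase signal. Of 40 genes listed as immediate early or heat shock genes, all 40 were measured, 0 passed the adjusted test, and 21 had all 3 OGCsort +/+ samples above both CPGSE +/+ samples, while 1, Egr3, had all below. Over all 17027 genes with a named probe set those shares were 15.4% above and 12.4% below. At an unadjusted p under 0.05, 11 list members were higher and 0 lower in OGCsort, where the background was 3.17% higher and 2.76% lower. The median log2 difference of the list was 0.62, against 0.04 over all genes.

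The promoters of the 3 list members with the smallest p (RefSeq, GRCm38.p6, 250 bases before to 50 after the gene's start) are shown because immediate early genes are known targets of the CREB and ATF factors, whose core motif TGACG, on either strand (CGTCA on the other), is in capitals.

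Dusp1, chr17:26508423-26508722, minus strand: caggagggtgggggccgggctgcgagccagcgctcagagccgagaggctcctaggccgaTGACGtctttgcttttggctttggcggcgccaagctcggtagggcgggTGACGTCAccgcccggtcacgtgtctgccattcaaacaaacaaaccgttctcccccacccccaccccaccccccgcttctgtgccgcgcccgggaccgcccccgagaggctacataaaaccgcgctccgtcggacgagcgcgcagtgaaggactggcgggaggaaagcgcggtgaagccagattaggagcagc

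Atf3, chr1:191183284-191183583, minus strand: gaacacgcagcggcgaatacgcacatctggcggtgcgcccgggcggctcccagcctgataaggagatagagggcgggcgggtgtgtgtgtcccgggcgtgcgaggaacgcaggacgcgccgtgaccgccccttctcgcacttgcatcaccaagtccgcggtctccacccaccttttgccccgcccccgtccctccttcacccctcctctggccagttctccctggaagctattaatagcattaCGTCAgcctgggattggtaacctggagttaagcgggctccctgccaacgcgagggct

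Nr4a1, chr15:101266596-101266895, plus strand: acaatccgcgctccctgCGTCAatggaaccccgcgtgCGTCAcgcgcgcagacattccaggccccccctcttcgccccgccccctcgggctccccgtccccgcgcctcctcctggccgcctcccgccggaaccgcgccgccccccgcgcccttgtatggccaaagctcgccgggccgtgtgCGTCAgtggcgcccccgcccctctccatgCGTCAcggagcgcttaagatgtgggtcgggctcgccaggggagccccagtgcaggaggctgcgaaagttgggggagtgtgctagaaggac

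TGACG was found in 19 of the 32 list members that had a promoter in the table (59.4%), against 23.0% of all 27025 genes with one. Among the 17 with a promoter whose OGCsort +/+ samples all lay above both CPGSE +/+ samples, 10 held it (58.8%). The longer palindrome TGACGTCA, which contains the shorter motif on both strands and occurs once in the Dusp1 window, was in 3 of 32 list members and 2.03% of all genes. A match in letters is a description of the window and not evidence of binding.

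Dusp1, the phosphatase that inactivates MAP kinases, read 8578, 4272 and 6780 in OGCsort +/+ samples, against 1914 and 1425 in CPGSE +/+ samples, and 2304 to 5830 in the 6 other OGCsort samples. The sets did not overlap. Dusp1 was the 1 member of 40 with all 9 OGCsort samples above both CPGSE samples, against 771 of all 17027 genes. Its log2 difference was 1.91 ± 0.31 (SE; 95% interval 1.25 to 2.57; limma adjusted p = 0.294). Atf3, a stress-induced factor of the ATF/CREB family, read 1211, 847 and 620 in OGCsort +/+ samples, against 19 and 212 in CPGSE +/+ samples, 7.97-fold higher in OGCsort on the log2(signal + 32) scale (log2 interval 1.89 to 4.10; limma adjusted p = 0.294). Leaving out CPGSE +/+ #6, which leaves #4 as the lone CPGSE sample with the spread borrowed from the other groups, brought Atf3 to a limma adjusted p of 0.0234, and over all alternatives this value ran up to 0.732.

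Nr4a1, an orphan nuclear receptor, read 2030, 1343 and 2289 in OGCsort +/+ samples, against 716 and 603 in CPGSE +/+ samples, a log2 difference of 1.44 (0.78 to 2.10). Fosb, a partner of Jun in AP-1, read 1535, 1052 and 1429 in OGCsort +/+ samples, against 317 and 343 in CPGSE +/+ samples, a log2 difference of 1.90 (0.96 to 2.85). Neither gene overlapped between the sets and neither passed the adjusted test, at 0.352 and 0.371. Klf6, Cd69, Rgs1, Egr1, Ier3, Jun and Ier5 were the other members with an unadjusted p under 0.05, with log2 differences of 1.06 to 1.96. Fos itself read 16214, 7933 and 6528 in OGCsort +/+ samples, against 6310 and 5967 in CPGSE +/+ samples, the sets nearly touching.

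The heat shock members did not share this order. Hspa1a, an inducible HSP70, read 3886, 244 and 112 in OGCsort +/+ samples, against 488 and 1068 in CPGSE +/+ samples, so a single OGCsort sample, #1, lay above all others. Hsp90aa1, Hsph1, Dnajb1, Hspb1, Hspa8, Hspa1a and Hspa1b all had a negative log2 difference on the probe set used, and all overlapped between the sets. The mean log2 level of the whole list was 10.87, 10.08 and 10.07 in OGCsort +/+ #1, #5 and #6, against 9.76 and 9.79 in the CPGSE +/+ samples. OGCsort +/+ #1, with the highest 3′ to 5′ ratios, was also the highest here, and without it the list's median fell from 0.62 to 0.41. Without it 21 members lay above both CPGSE +/+ samples, but leaving out a sample cannot lower this count. In OGCsort +/- samples the level was 10.32 to 10.49, and in OGCsort -/- samples 8.71 to 9.48. For the 10 members measured on both chips the median log2 difference was 0.23 on chip A and 0.43 on chip B, with 7 of the same sign.

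**Figure D1:**
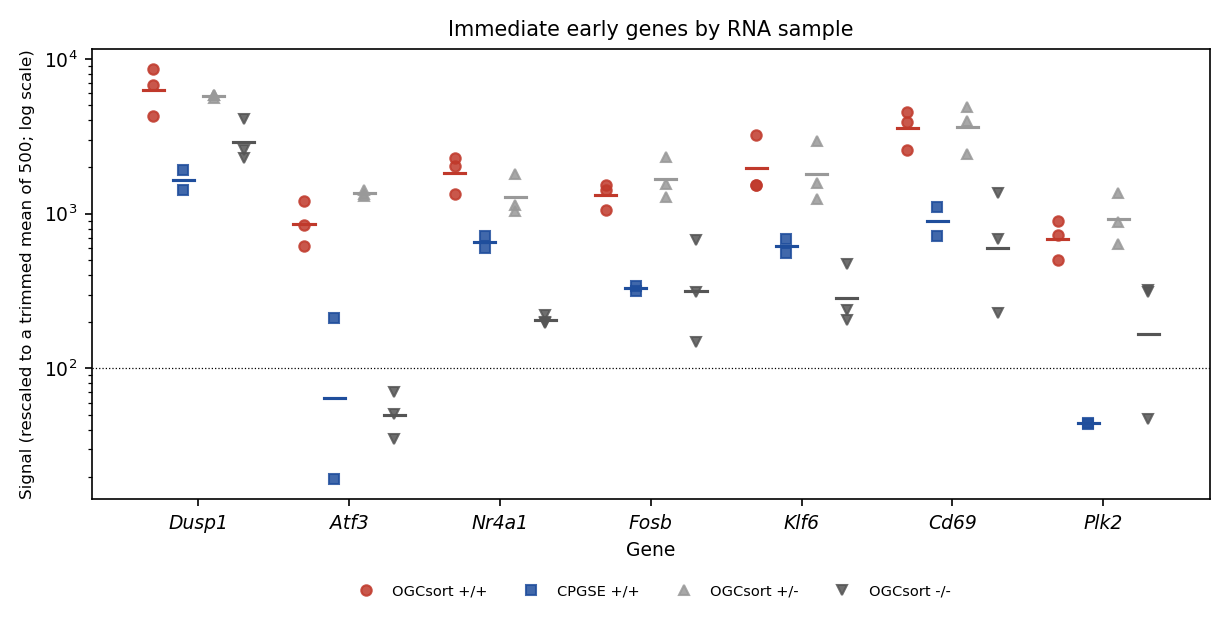
Rescaled signal (log axis) of 6 immediate early genes and Plk2 in each RNA sample, with points for samples, a short line for the geometric mean of each group and a dotted line at a signal of 100. For every gene the 3 OGCsort +/+ samples sit above both CPGSE +/+ samples, but the genes were chosen for small p. Plk2 is shown on its chip A probe set and is under 100 in both CPGSE +/+ samples. Its chip B probe set does not show this order.

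Monocyte and macrophage genes ran the other way. Of 28 measured, 27 had a negative log2 difference, 0 passed the adjusted test, 9 had all OGCsort +/+ samples below both CPGSE +/+ samples (background 12.4%) and 10 had an unadjusted p under 0.05 on the lower side (background 2.76%). The single member above was Klf4, which is also in the immediate early list, and the median was -0.90. Cx3cr1, the fractalkine receptor of monocytes, read 700, 620 and 607 in OGCsort +/+ samples, against 1315 and 1696 in CPGSE +/+ samples, a log2 difference of -1.18 (-1.97 to -0.40; adjusted p = 0.583). Ccr2, the chemokine receptor by which monocytes leave the marrow, read 337, 375 and 340 in OGCsort +/+ samples, against 963 and 1471 in CPGSE +/+ samples, a log2 difference of -1.68 (-3.15 to -0.21; adjusted p = 0.784). Both genes were separated between the sets, with OGCsort +/+ samples close to each other. Ms4a6c, a membrane protein of monocytes, was separated by less, with 2181, 734 and 898 in OGCsort +/+ samples, against 2464 and 4630 in CPGSE +/+ samples, and its 2 probe sets disagreed, with log2 differences of -1.55 and 0.28.

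CPGSE +/+ #6 was the high sample for macrophage genes. C1qc, a chain of complement C1q, read 600, 293 and 221 in OGCsort +/+ samples, against 475 in CPGSE +/+ #4 and 1665 in CPGSE +/+ #6. Vcam1, an adhesion molecule of marrow macrophages and stroma, read 937, 751 and 241 in OGCsort +/+ samples, against 545 in CPGSE +/+ #4 and 3405 in #6, while 1 of its 3 probe sets had a positive difference. Slc40a1, the iron exporter ferroportin, read 1109, 519 and 296 in OGCsort +/+ samples, against 592 in CPGSE +/+ #4 and 3836 in #6. For these genes CPGSE +/+ #4 lay inside the OGCsort +/+ range. The mean log2 level of the list was 9.90, 9.40 and 9.33 in OGCsort +/+ samples and 9.92 and 10.84 in CPGSE +/+ samples. Without CPGSE +/+ #6 the median was -0.42, without CPGSE +/+ #4 it was -1.32, and without OGCsort +/+ #1 it was -1.19.

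Neutrophil granule genes were also high in that sample. Of 25 measured, 24 had a negative log2 difference, with a median of -1.10, and 0 passed the adjusted test. All OGCsort +/+ samples lay below both CPGSE +/+ samples in just 5 (Lyz2, Chil3, Elane, Fcnb and Cxcr2), 20% against 12.4% over all genes. In 1, Gfi1, all lay above (4%, against 15.4% over all genes). S100a9, a calcium-binding protein abundant in neutrophils, read 3426, 317 and 411 in OGCsort +/+ samples, against 1187 and 17745 in CPGSE +/+ #4 and #6. Chil3, a chitinase-like protein of immature neutrophils and monocytes, read 1665, 438 and 452 in OGCsort +/+ samples, against 1830 and 12622 in CPGSE +/+ samples, so the sets were only just apart. Lyz2, the lysozyme of myeloid cells, was apart by more, at 4280, 2024 and 1981 in OGCsort +/+ samples, against 6667 and 12758 in CPGSE +/+ samples, a log2 difference of -1.82 (-3.17 to -0.48; adjusted p = 0.672). The list's mean log2 level was 9.71, 8.59 and 8.75 in OGCsort +/+ samples and 9.20 and 11.20 in CPGSE +/+ samples, against 10.83 to 12.75 in OGCsort +/- samples. Within each set a single sample was high, OGCsort +/+ #1 and CPGSE +/+ #6. Without CPGSE +/+ #6 the median was -0.15, without CPGSE +/+ #4 it was -1.76, and without OGCsort +/+ #1 it was -1.43. Mcpt8, a protease of basophils, followed the same samples, reading 1284, 202 and 70 in OGCsort +/+ samples and 572 and 4788 in CPGSE +/+ samples.

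**Figure D2:**
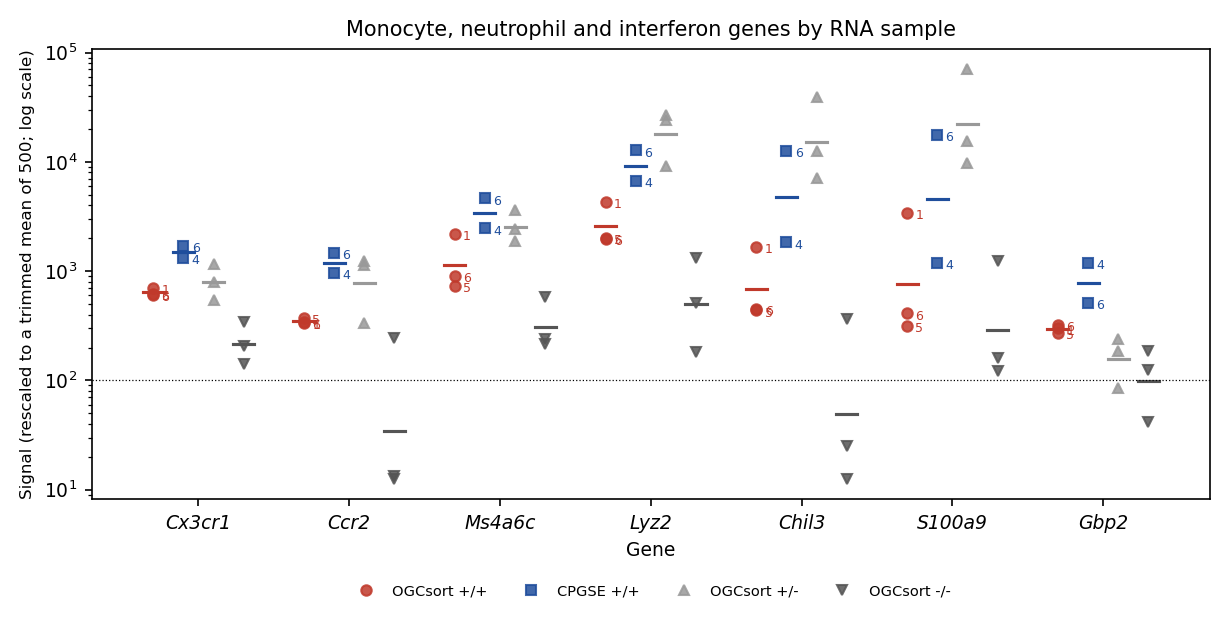
Rescaled signal (log axis) of monocyte genes (Cx3cr1, Ccr2, Ms4a6c), neutrophil genes (Lyz2, Chil3, S100a9) and the interferon-induced gene Gbp2 in each RNA sample, with sample numbers beside the +/+ points, short lines for geometric means and a dotted line at 100. All genes shown but S100a9 separate the sets, Ms4a6c and Chil3 only narrowly. For S100a9, CPGSE +/+ #4 lies between OGCsort +/+ #1 and the other OGCsort +/+ samples.

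Interferon-response genes mostly had lower values in OGCsort, and here CPGSE +/+ #4 was the higher CPGSE sample. Of 29 measured, 24 had a negative log2 difference and 0 passed the adjusted test. All OGCsort +/+ samples lay below both CPGSE +/+ samples in 12 (41.4%, against 12.4% over all genes). In 2 all lay above (6.90%, against 15.4%), and 4 had an unadjusted p under 0.05 on the lower side (background 2.76%). The median was -0.37. Xaf1, an interferon-induced pro-apoptotic protein, read 1024, 1376 and 1481 in OGCsort +/+ samples, against 4700 and 1922 in CPGSE +/+ samples. Gbp2, a guanylate-binding protein, read 299, 274 and 323 in OGCsort +/+ samples, against 1186 and 515 in CPGSE +/+ samples, a log2 difference of -1.31 (-2.42 to -0.20; adjusted p = 0.766). For both genes CPGSE +/+ #4 was the highest of the 5 samples, with a mean log2 level of the list of 10.47, against 9.76 to 10.10 in OGCsort +/+ samples and 10.11 in CPGSE +/+ #6. Ifih1, a sensor of double-stranded RNA, read 583, 608 and 930 in OGCsort +/+ samples, against 1242 and 1117 in CPGSE +/+ samples. In 7 of the 29 genes all 9 OGCsort samples lay below both CPGSE +/+ samples, against 689 of all 17027 genes. Tap1 and Oas2 were the 2 genes with the opposite order. The median was -0.52 when CPGSE +/+ #6 was left out, and -0.20 when CPGSE +/+ #4 was left out.

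For Jchain and Igha a wide gap lay inside the OGCsort set. Jchain, which joins IgA and IgM into polymers and is made by plasma cells, read 14088 in OGCsort +/+ #1 but 978 and 1028 in #5 and #6, against 13503 and 18762 in CPGSE +/+ samples. Igha, the IgA heavy chain constant region, read on 1 of its probe sets 46404 in OGCsort +/+ #1 but 945 and 862 in #5 and #6, against 15770 and 28726 in CPGSE +/+ samples. OGCsort +/+ #1 thus resembled the CPGSE +/+ samples for these genes, and #5 and #6 stood apart. All 3 Igha probe sets had this order, with log2 differences of -2.63 to -2.40, and Jchain had -2.69 with an adjusted p of 0.563. Leaving out OGCsort +/+ #1 called Jchain (log2 difference -3.95, adjusted p = 0.0130), Ighm (-2.51, adjusted p = 0.0224) and Igha (-4.20, adjusted p = 0.0224), all lower in OGCsort. Array weights called Jchain as well (log2 difference -3.30, limma adjusted p = 0.0308), and no other alternative called any of these probe sets. Immunoglobulin probe sets can share sequence, and the 10 Ighm probe sets ranged from -2.26 to 0.97. The brightest of them had a log2 difference of 0.29 and overlapped between the sets. Igha and Ighm were singled out after their values were seen. Of 17 plasma cell genes measured, Jchain among them, 3 lay below and 1 above (17.6% and 5.88%, against 12.4% and 15.4% over all genes). Xbp1, a transcription factor of antibody secretion, overlapped between the sets on the probe set used, with 622, 480 and 603 in OGCsort +/+ samples and 580 and 309 in CPGSE +/+ samples. That was the single positive one of its 4 probe sets, which ranged from -1.11 to 0.39, so the other 3 had the sign of Jchain and Igha.

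Sex-linked transcripts also differed inside both sets. Xist, the RNA of the inactive X chromosome, read 13, 7430 and 8728 in OGCsort +/+ #1, #5 and #6, against 7425 in CPGSE +/+ #4 and 11 in CPGSE +/+ #6. Eif2s3y, a Y-linked gene, read 572, 3.9 and 3.2 in OGCsort +/+ samples, against 1.9 and 607 in CPGSE +/+ samples. Each set thus held a sample with the Y-linked transcript and without Xist, OGCsort +/+ #1 and CPGSE +/+ #6. These were the same samples that were the highest of their sets for the neutrophil list, and the part of the animals' sex in the other results was not tested. By these transcripts neither set came from a single animal, though they do not tell whether OGCsort +/+ #5 and #6 shared an animal.

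**Figure D3:**
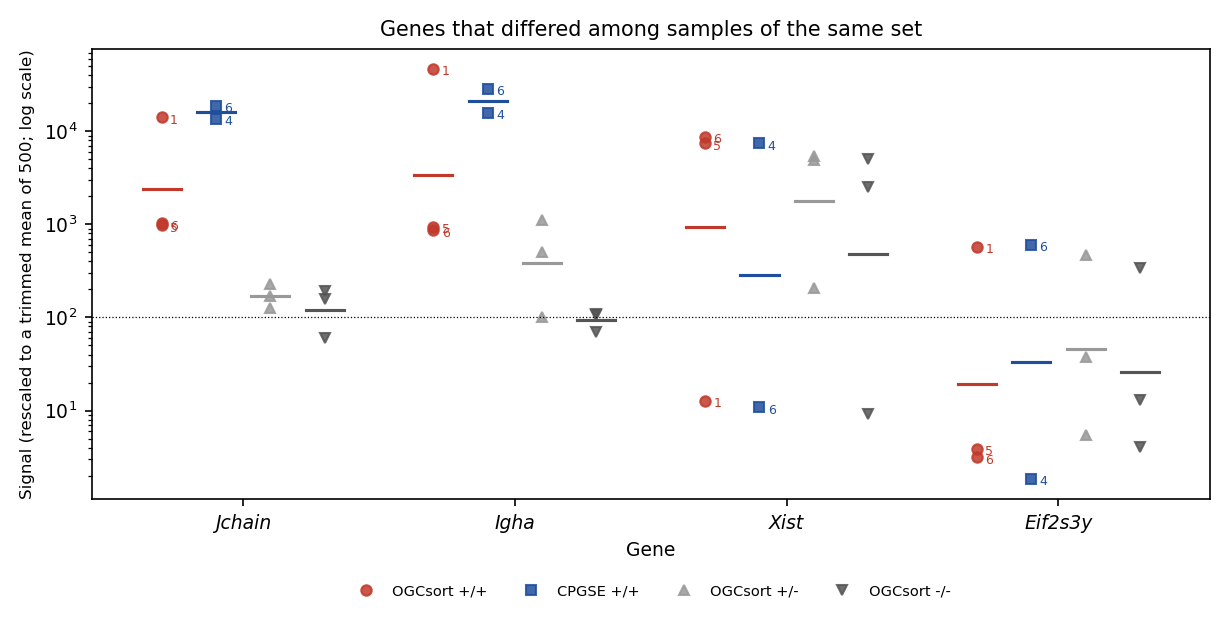
Rescaled signal (log axis) of Jchain, Igha (the same probe set as in the text), Xist and Eif2s3y in each RNA sample, with sample numbers beside the +/+ points, short lines for geometric means and a dotted line at 100. OGCsort +/+ #1 lies with the CPGSE +/+ samples for Jchain and Igha, and with CPGSE +/+ #6 for Xist and Eif2s3y.

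Lists of housekeeping machinery had smaller medians, and their counts stand beside 15.4% above and 12.4% below over all genes. Cytosolic ribosomal protein genes had a median of 0.24, with 9 of 22 above and 3 below, 0 passing the adjusted test, but with quantile normalization the median was 0.03 and 5 lay above. Rpsa, a protein of the small subunit, read 40647, 38854 and 35372 in OGCsort +/+ samples, against 21410 and 26154 in CPGSE +/+ samples. These genes have many processed copies in the genome, so their probe sets are uncertain. Proteasome genes had a median of -0.13, with 8 of 28 below and 0 above. Without OGCsort +/+ #6 their median was -0.23, and without CPGSE +/+ #4 it was -0.24. Psma1, an alpha subunit of the proteasome core, read 744, 1125 and 1116 in OGCsort +/+ samples, against 1518 and 1563 in CPGSE +/+ samples, but its other 2 probe sets had positive differences of up to 0.52. Splicing factor genes had 9 of 30 above and 2 below, with a median of 0.09, and respiratory chain genes 4 above and 8 below of 35, with a median of -0.08.

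Several cell identity lists had medians near 0, and the shares over all genes were again 15.4% above and 12.4% below. The stem and progenitor list had a median of -0.01, with 5 of 25 above and 3 below and mean log2 levels of 8.98 to 9.06 in OGCsort +/+ samples and 8.89 and 8.92 in CPGSE +/+ samples. MHC class II genes had a median of -0.05 and levels of 11.91 to 12.22 in OGCsort +/+ samples and 11.87 and 12.04 in CPGSE +/+ samples. The B lymphoid list had 6 of 23 above and 0 below, with a median of 0.17; Cd24a, a surface glycoprotein of B cell precursors and erythroid cells, read 3897, 3024 and 2337 in OGCsort +/+ samples, against 1606 and 2194 in CPGSE +/+ samples. Endothelial genes had 5 of 17 above and 0 below, but with a median of 0.05, 10 members positive and 7 negative. Its member Eng is a TGF-beta co-receptor of endothelial and stem cells. Eng read 482, 470 and 473 in OGCsort +/+ samples, against 92 and 243 in CPGSE +/+ samples. Erythroid genes had 1 of 22 above and 3 below, with a median of 0.06, 13 members positive and 9 negative. They averaged a log2 level of 8.18 in both sets, against 12.67 to 13.33 in OGCsort -/- samples. The member above was Gfi1b, a repressor needed for erythroid and megakaryocyte development. Gfi1b read 195, 276 and 164 in OGCsort +/+ samples, against 30 and 34 in CPGSE +/+ samples. A group with every array under 100 has only a bound, taken here against 100, so Gfi1b was at least 2.07-fold higher in OGCsort (adjusted p = 0.352).

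Cell cycle genes had a median of -0.24 with 28 of 35 members negative. In the sense used here just 1 lay below and 2 above (2.86% and 5.71%, against 12.4% and 15.4% over all genes). Their mean log2 level was 9.35, 9.50 and 9.28 in OGCsort +/+ samples, against 9.18 and 10.02 in CPGSE +/+ samples, so CPGSE +/+ #6 was high and #4 low. Nusap1, a spindle protein, read 653, 756 and 716 in OGCsort +/+ samples, against 963 and 2135 in CPGSE +/+ samples. E2f1, an activator of S phase genes, had the opposite order, with 67, 309 and 244 in OGCsort +/+ samples, against 34 and 40 in CPGSE +/+ samples (limma adjusted p = 0.672). OGCsort +/+ #1 was itself under 100, so the gap between the sets lay under that floor and no bound on the fold is given.

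**Figure D4:**
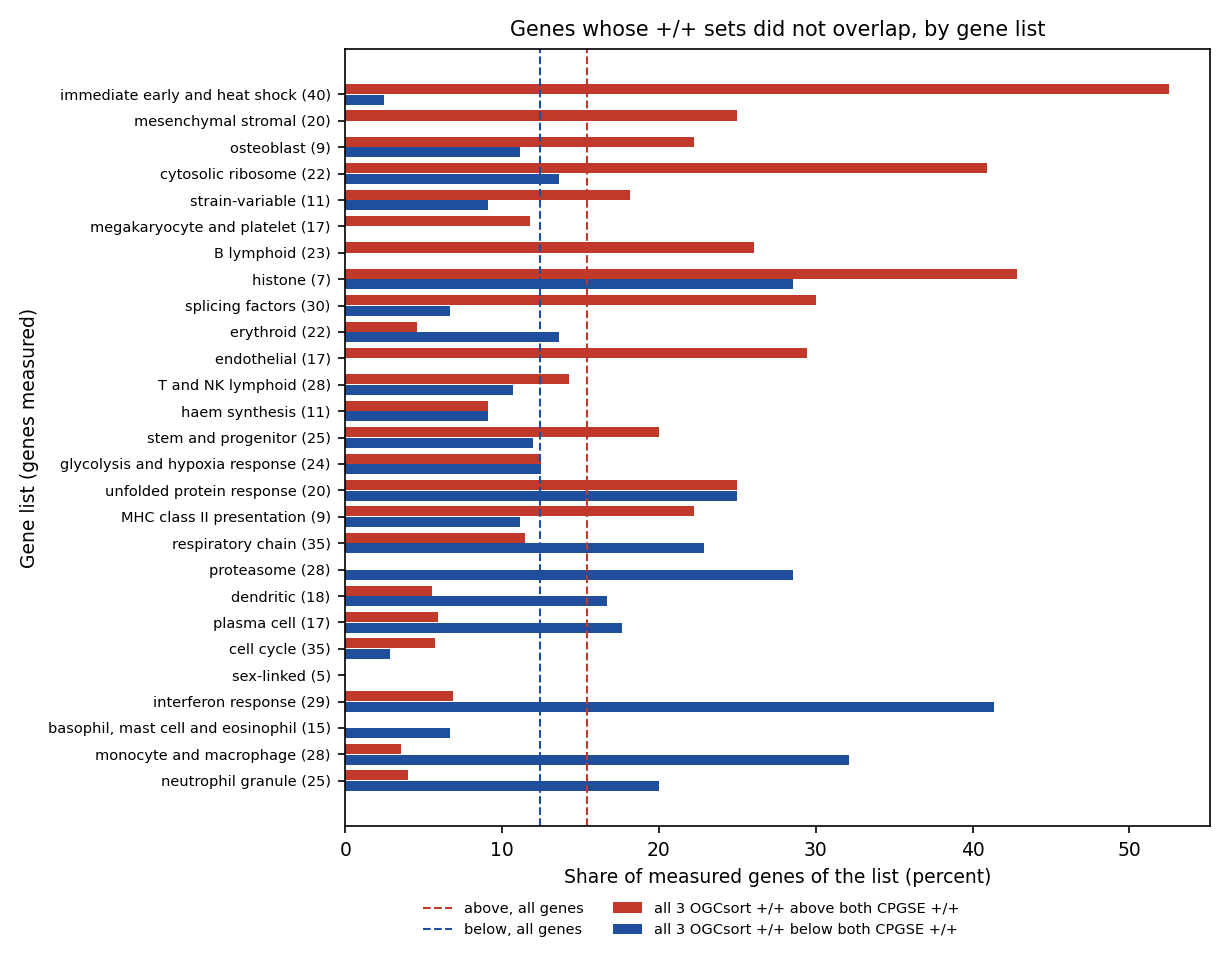
Share of measured genes (percent) of each of 27 gene lists with all 3 OGCsort +/+ samples above (red) or below (blue) both CPGSE +/+ samples, lists ordered by median log2 difference and the number measured in brackets; dashed lines give the shares over all genes, 15.4% and 12.4%. The immediate early and heat shock list has the longest red bar, and the interferon and monocyte lists the longest blue bars.

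Beside the list members Dusp1 and Atf3, the 8 probe sets with the smallest p held Kpna2, Bcl11a, Plk2, Malat1, Hmgb2 and 1 with no gene name, and these genes outside the lists were singled out after their values were seen. Kpna2, an importin that carries proteins into the nucleus, read 842, 876 and 845 in OGCsort +/+ samples, against 2201 and 4625 in CPGSE +/+ samples, a log2 difference of -1.86 (-2.49 to -1.24; limma adjusted p = 0.294). Plk2, a kinase induced by stress and growth signals, read 890, 503 and 732 on chip A in OGCsort +/+ samples, against 44 and 45 in CPGSE +/+ samples, at least 6.89-fold higher in OGCsort (adjusted p = 0.294). The chip B probe set of Plk2 did not show this order, at 337, 573 and 196 in OGCsort +/+ samples, against 409 and 356 in CPGSE +/+ samples. Bcl11a, a repressor needed for B cell development and globin switching, read 2501, 1701 and 1252 in OGCsort +/+ samples, against 326 and 224 in CPGSE +/+ samples, a log2 difference of 2.56 (1.59 to 3.52; adjusted p = 0.294). Its other probe sets ranged from -0.30 to 0.85 in log2 difference and overlapped between the sets. Malat1, a long nuclear RNA, had probe sets that disagreed. Its probe set with the most negative difference read 3127, 2017 and 1303 in OGCsort +/+ samples, against 9937 and 17666 in CPGSE +/+ samples, and its brightest probe set, on chip B, read 22171, 12705 and 13589 in OGCsort +/+ samples and 15513 and 15151 in CPGSE +/+ samples. Its 7 probe sets ranged from -2.69 to 0.38 in log2 difference, 4 of them negative. Hmgb2, a chromatin protein of dividing cells, had 3 probe sets on 2 chips, all negative, at -1.78 to -0.69.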

How the data were processed

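Mouse bone marrow RNA was measured on 22 arrays, 11 on each chip. The authors deposited intensity, a linear signal for each probe set, made with MAS5 per the submitters' processing notes (version not given in the sources used here); from the values, every array had been scaled to a 2% trimmed mean of 1500.1 to 1500.7. Run records deposited with the arrays served only to find chip lots and array runs. Here signals were brought to a 2% trimmed mean of 500 on every array, over non-control probe sets, and taken as log2(signal + 32). Probe sets over 100 on at least 2 of 11 arrays were kept, 19273 on chip A and 21255 on chip B; for the 100 present on both chips, chip A was used. Fits used limma 3.58.1 in R 4.3.3 (lmFit, eBayes with trend), each chip by itself, with 4 groups, Benjamini-Hochberg adjustment over both chips and a threshold of 0.05. GEO's probe tables gave exactly 1 gene for 20380 of 22626 chip A probe sets and for 14661 of 22511 on chip B; 691 and 245 had several genes and 1555 and 7605 none. Where a gene had several probe sets, chip A was preferred, then a plain _at name, then the highest mean. The rule for named genes was Ptprc, the strongest genes past the threshold (none passed) and, from every list, at most 4 genes ranked by adjusted p; other list members and the probe sets outside lists were chosen after their values were seen. The samples, the 27 lists and the tests were chosen with earlier results of these data known. Scripts were tested on simulated data. The number of arrays limits the precision.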

Additional observations from a re-analysis of the deposited data

How the results depend on the processing

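The differences of 35 genes, Kpna2, Plk2, Malat1, Hmgb2 and 31 list members with small p (such as Dusp1, Atf3, Cx3cr1 and Lyz2), were recomputed under 20 alternatives and kept their sign. These genes were chosen for small p in the same data. Where the sets did not overlap, leaving out a sample or changing the pseudocount could not reverse the sign, so the outcome was largely fixed in advance. Other genes with printed values, such as Kit, Cd74, Jchain and Xist, were not followed this way. The count of calls stayed at 0 under pseudocounts of 16 and 64, no filter, a filter over 200 in the +/+ arrays, quantile normalization, no rescaling, no trend, robust fitting, adjustment within each chip, the 5 +/+ samples only, the sort number or the array run as a random block, and the Gapdh ratio as a covariate, with lowest adjusted p-values of 0.0592 to 0.370. Array weights called 115 (95 on chip A, 20 on chip B), among them Dusp1, Atf3, Nr4a1, Fosb, Ms4a6c, Gfi1b, Kpna2, Plk2 and Malat1; array weights within the 5 +/+ samples, added after seeing the data, called 3 (2 on chip A, 1 on chip B). Leaving out a +/+ sample gave 0 to 3 calls on chip A and in all, and 0 on chip B; without a CPGSE sample the lone one is assumed to vary like the other groups. The cause was not tested. The 2429 probe sets at an unadjusted p under 0.05 became 4864 with array weights, 3730 with the 5 +/+ samples, 4958 with both and 1520 without CPGSE +/+ #6. Ptprc gave -0.33 to -0.50 under other scalings and on chip B, and -0.47 to -0.19 with a sample left out. The 21 immediate early genes above were 21 to 24 under all alternatives, but most of these could not lower the count. Fit settings and pseudocounts leave the order of samples unchanged. Leaving out a sample can only keep or raise a count of genes above or below, for any list. Quantile normalization and the filter over 200 could lower it, and each gave 21. Leaving out single samples was followed for the immediate early, monocyte, neutrophil, interferon, ribosome and proteasome lists only; the ribosome median ran from 0.18 to 0.31. No paired analysis was possible because nothing in the labels pairs samples between the 2 sets, and the 1 number in common, #6, does not mark a pair. A fixed term for array run could not be fitted, since no run held both sets.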

Other observations

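Stress and metabolic lists not described above were mixed, where 15.4% of all genes lay above and 12.4% below. Of 20 unfolded protein response genes, 5 lay above and 5 below. Ddit3 (CHOP), a transcription factor of prolonged endoplasmic reticulum stress, read 515, 577 and 608 in OGCsort +/+ samples, against 252 and 312 in CPGSE +/+ samples. Pdia3, a disulfide isomerase of the same compartment, read 406, 401 and 883 in OGCsort +/+ samples, against 1373 and 965 in CPGSE +/+ samples, so members of the same list lay in opposite orders. Of 24 glycolysis and hypoxia genes, 3 lay above and 3 below. Ddit4 (REDD1), an inhibitor of mTORC1, read 1425, 569 and 445 in OGCsort +/+ samples, against 4322 and 1199 in CPGSE +/+ samples. Haem synthesis genes had 1 above and 1 below of 11, and histone genes 3 above and 2 below of 7.

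Other cell types that marrow can hold gave these counts, none of them past the adjusted test. The shares over all genes were 15.4% above and 12.4% below. T and NK lymphoid genes had 4 above and 3 below of 28 (14.3% and 10.7%, near those shares), and dendritic genes 1 above and 3 below of 18. Megakaryocyte and platelet genes had 2 above and 0 below of 17. Basophil, mast cell and eosinophil genes had 0 above and 1 below of 15, with a median of -0.54. Mesenchymal stromal genes had 5 above and 0 below of 20, with a median of 0.29, and osteoblast genes 2 above and 1 below of 9. Genes that differ between mouse strains had 2 above and 1 below of 11. Of 5 sex-linked genes, 0 lay above or below.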
